A study of Homo sapiens with 13 samples.

Results

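TXNIP, ARRDC4 and the genes of glucose uptake were examined in 13 human acute lymphoblastic leukemia (ALL) cell lines, 7 of T-cell origin (T-ALL) and 6 of B-cell precursor origin (BCP-ALL). The members were 9 genes of the 18568 genes that had at least 1 probe set of their own: the α-arrestins TXNIP, ARRDC4 and ARRDC3, the transcription factors MLXIP and MLX, the glucose transporters SLC2A1 and SLC2A3, and the hexokinases HK1 and HK2. TXNIP was chosen by its measured log2 levels, which in an earlier analysis of the same arrays ran against the methotrexate (MTX) IC50 of the lines at the longer exposure, and the other genes were added for their known ties to it. TXNIP levels over the lines are therefore given as a description, and no relation to IC50 is given here. Tests are kept to lineage, which that choice did not use, and to the relation of other genes to TXNIP. The latter takes the same TXNIP levels as its predictor, so it is not independent of the choice. All 9 members passed the filter on low expression, as did 12560 genes in all.

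Jurkat, CCRF-CEM, Molt4, HPB-ALL, TALL-1, P12-ICHIKAWA and ALL-SIL made up the T-ALL group, and REH, RS4;11, 697, Nalm6, Nalm16 and Nalm30 the BCP-ALL group. Every line was an untreated, permanently growing culture kept for 30 h in serum-supplemented medium, per the labels, while the study's methods describe an overnight culture in fresh medium. RNA of each line was hybridised to 1 Affymetrix whole-genome expression array, so that each line is 1 sample and no value carries a replicate error of its own. The medium was the same for all lines as far as the labels state. No glucose level at harvest is recorded for any line, so an equal glucose supply is not shown.

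Glucose entering a cell through the transporters GLUT1 (SLC2A1) and GLUT3 (SLC2A3) is phosphorylated by hexokinases to glucose-6-phosphate. MondoA, the product of MLXIP, responds to glucose-6-phosphate, pairs with MLX and binds carbohydrate response elements, which are built from pairs of E-boxes, in the promoters of TXNIP and ARRDC4. TXNIP and ARRDC4 in turn lower glucose uptake, TXNIP by drawing glucose transporters from the cell surface and by lowering their transcripts. TXNIP also binds thioredoxin and holds back its reducing activity.

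To show the elements through which MondoA and MLX are known to act, promoter windows from RefSeq (GRCh38.p14; 250 bases before to 50 after each start) were searched on both strands for the E-box CACGTG and for the paired form CACNNGNNNNNCACNNG, whose arms include CACGTG as one case. Windows were at hand for 8 of the 9 members, 17 windows in all, SLC2A3 being the member without one. The pieces upstream of the start that hold a match are printed below 5′ to 3′ on the gene's strand, with capitals marking the letters that the motif fixes.
TXNIP, chr1:145996620-145996699, minus strand: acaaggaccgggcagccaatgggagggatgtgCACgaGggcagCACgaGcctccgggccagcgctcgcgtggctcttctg
ARRDC4, chr15:97960463-97960542, plus strand: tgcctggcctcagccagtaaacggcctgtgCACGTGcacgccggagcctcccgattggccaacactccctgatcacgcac
MLX, chr17:42567010-42567089, plus strand: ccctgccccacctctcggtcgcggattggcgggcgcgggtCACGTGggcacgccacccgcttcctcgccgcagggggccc
HK2, chr2:74834950-74835049, plus strand: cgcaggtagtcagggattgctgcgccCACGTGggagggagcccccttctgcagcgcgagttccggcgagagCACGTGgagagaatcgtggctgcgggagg

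Among the members, the paired form occurred in the TXNIP window only, with its first base at position -88 from the start. It occurred in 345 of all 35116 windows (0.982%). CACGTG occurred at position -210 in ARRDC4, at -50 in MLX and at -194 and -149 in HK2. That is 3 of the 17 member windows, against 2548 of all 35116 windows (7.26%). None of the other members' windows held these letters, and a match is a description of the sequence only. The HK2 window with both matches, chr2:74834920-74835219, lies within the span of the gene, chr2:74834127-74893359. Its positions are therefore counted from a start inside that span, not from the outermost start of HK2.

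Before the members are described, 2 features of the arrays bear on them. P12-ICHIKAWA and TALL-1 correlated at r = 0.993 over all probe sets, above the next pair of the 78, Nalm16 and Nalm30, at 0.959; the lowest pair stood at 0.770. Whether P12-ICHIKAWA and TALL-1 are separate cells was not tested. They are counted below as 2 lines, as labelled, and averaging them as 1 sample, which leaves 12 lines, 6 of them T-ALL, left the direction and the call of every member unchanged. The lineage labels matched their markers: the mean log2 level of 9 B-lineage genes ran from 4.63 to 5.81 in T-ALL and from 9.48 to 10.5 in BCP-ALL, and that of 9 T-lineage genes from 8.72 to 10.1 in T-ALL and from 4.80 to 5.50 in BCP-ALL. Array medians lay between 5.05 and 5.37. The deposited values are log2 of a signal to which 16 had been added, so no value can lie below 4, and differences between low values are compressed.

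TXNIP (chr1:145992435-145996579, minus strand) varied widely between the lines and was lowest in 2 T-ALL lines. Its log2 expression was 9.76 in CCRF-CEM, 9.06 in Molt4, 8.90 in ALL-SIL, 8.76 in TALL-1, 8.66 in P12-ICHIKAWA, 6.49 in Jurkat and 5.33 in HPB-ALL, and in BCP-ALL it was 9.16 in REH, 8.76 in Nalm6, 8.43 in RS4;11, 8.11 in Nalm30, 7.35 in Nalm16 and 7.27 in 697. The T-ALL lines thus held both ends of the range, 5 of them lying at 8.66 or above and HPB-ALL and Jurkat below every BCP-ALL line. The highest and the lowest line differed by 4.43 log2 units on the deposited scale. No fold is given, since the added constant weighs on low values such as that of HPB-ALL. The SD over the 13 lines was 1.23, larger than that of 88.3% of the genes fitted, whose median SD was 0.523. With 1 array per line, the order of neighbouring lines such as TALL-1, Nalm6 and P12-ICHIKAWA cannot be read as a difference.

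The 3 probe sets of TXNIP gave much the same picture. Their pairwise correlations over the lines ran from r = 0.965 to 0.969. HPB-ALL was the lowest line and CCRF-CEM the highest on each of them, with ranges of 4.43, 4.50 and 4.53 log2 units. On 2 of the 3 probe sets HPB-ALL came within 1 log2 unit of the lowest value possible.

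ARRDC4 (chr15:97960703-97973833), the α-arrestin that shares regulation by MondoA with TXNIP in many cell types, was highest where TXNIP was lowest. Its log2 expression in T-ALL was 8.87 in HPB-ALL, 6.68 in ALL-SIL, 6.47 in Jurkat, 6.005 in Molt4, 5.77 in CCRF-CEM, 4.48 in P12-ICHIKAWA and 4.46 in TALL-1. In BCP-ALL it was 5.99 in Nalm16, 5.95 in Nalm6, 5.67 in 697, 5.62 in Nalm30, 5.31 in REH and 5.19 in RS4;11. HPB-ALL, the line with the least TXNIP, had the most ARRDC4, and Jurkat, with the second least TXNIP, ranked 3 of 13 for ARRDC4. The other 12 lines lay between 4.46 and 6.68, and P12-ICHIKAWA and TALL-1 were within 1 log2 unit of the lowest value possible. The SD was 1.505 in T-ALL and 0.325 in BCP-ALL, whose lines lay close together.

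**Figure D1:**
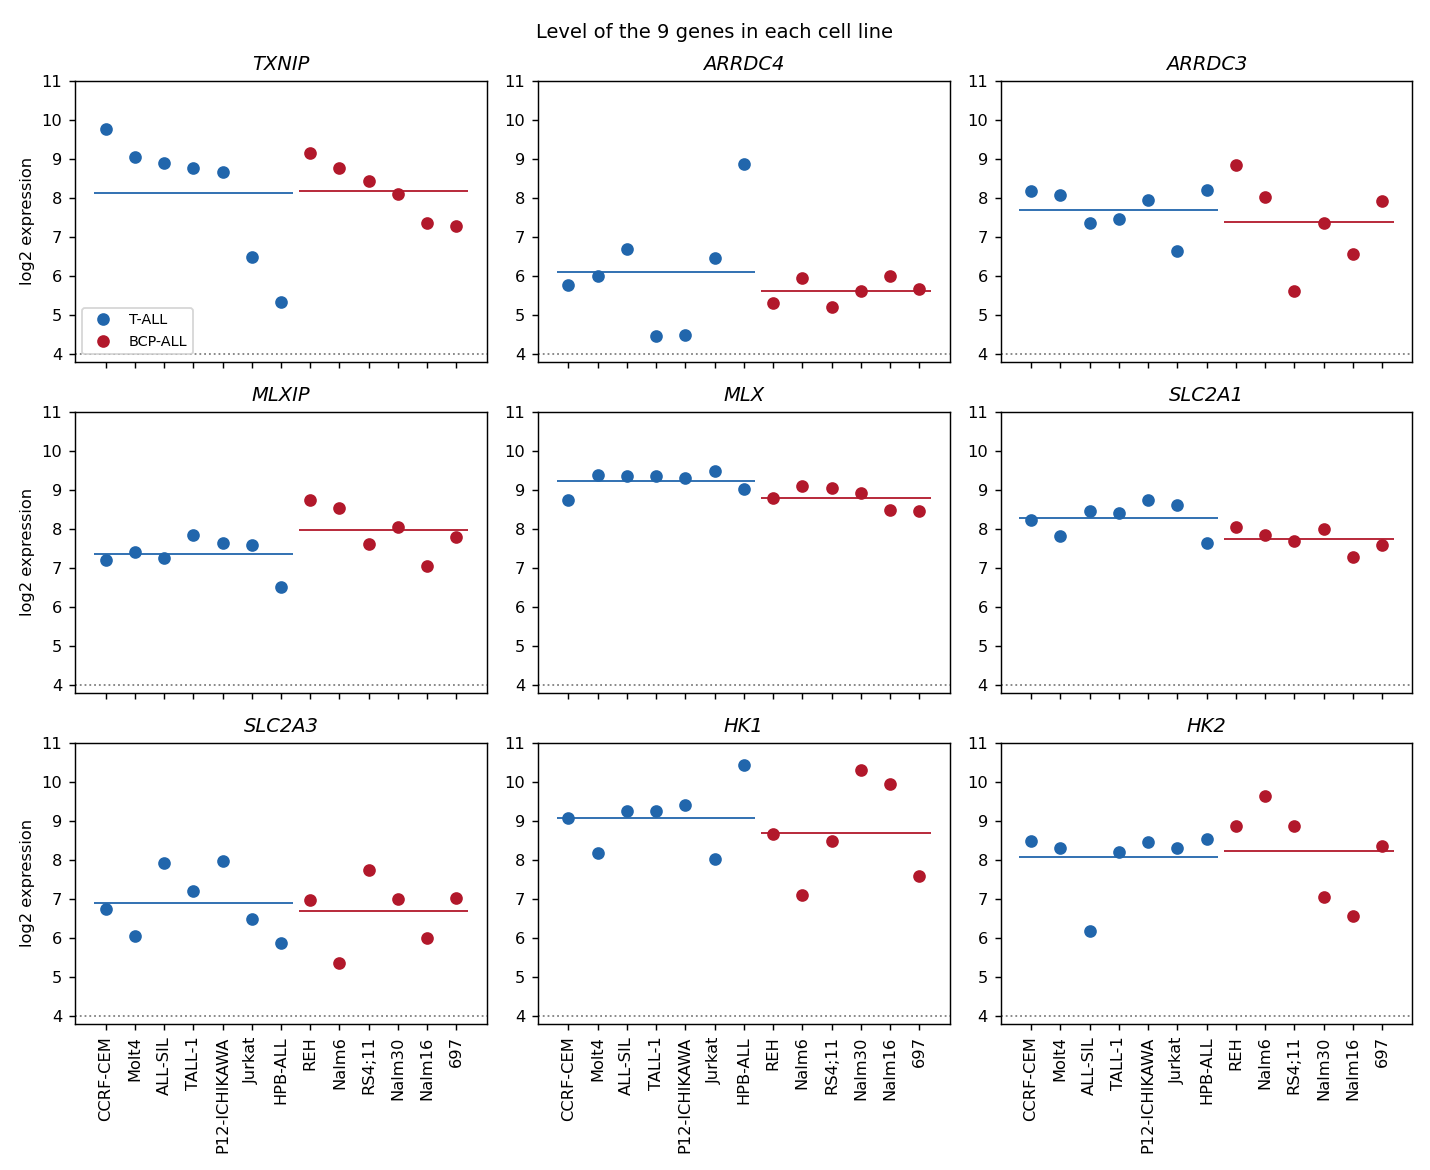
Log2 expression (vertical axis, same scale in each panel) of the 9 genes in the 13 cell lines, T-ALL (blue) left of BCP-ALL (red), with lines in order of falling TXNIP within each lineage. Each point is 1 array, the horizontal bars are group means and the dotted line marks the lowest value possible, 4; HPB-ALL shows the lowest TXNIP (5.33) and the highest ARRDC4 (8.87).

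Over the 13 lines ARRDC4 correlated with TXNIP at Pearson's r = -0.67 and Spearman's rho = -0.27. These correlations, and those given for other genes, describe 13 unreplicated lines measured on the same arrays, and carry no p. To test the relation across the arrays, every gene was fitted on the TXNIP level with limma. ARRDC4 had a slope of -0.61 log2 units for each log2 unit of TXNIP (SE 0.189, 95% interval -1.02 to -0.20, unadjusted p = 0.00667), which did not pass after Benjamini-Hochberg adjustment over 12559 genes (limma, adjusted p = 0.9999). By r it stood at position 38 of the 12559 genes, counted from the most negative.

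The relation rested on HPB-ALL. Without HPB-ALL the slope was -0.20 (limma, unadjusted p = 0.361), and without HPB-ALL and Jurkat, the 2 lines farthest from the TXNIP median of 8.66, it was -0.03. In the remaining 11 lines, r was -0.04 and rho was 0.14. Among these lines, which had TXNIP of 7.27 or more, no relation of ARRDC4 to TXNIP was detectable.

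No gene passed in the fit on TXNIP (0% of 12559 genes called at an adjusted p of at most 0.05), while 340 genes (2.71%) had an unadjusted p under 0.05, 1.87% with a positive and 0.836% with a negative slope. Against this, 0 of the other 8 members passed, and 1 of the 8, ARRDC4, had an unadjusted p under 0.05. Leaving out single lines gave calls only without Jurkat, when 4 genes passed, none of them a member: CDKN2A and GADD45G with negative slopes, and PAXX and ZNF512B with positive ones, each named after its value was seen. Without both HPB-ALL and Jurkat 1 gene passed (CACNG5, slope -0.91), but the number with an unadjusted p under 0.05 was 3218. The count of genes that ran with TXNIP therefore depended strongly on these 2 lines, and a gene that did not pass over 13 lines is not shown to be unrelated to TXNIP.

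**Figure D2:**
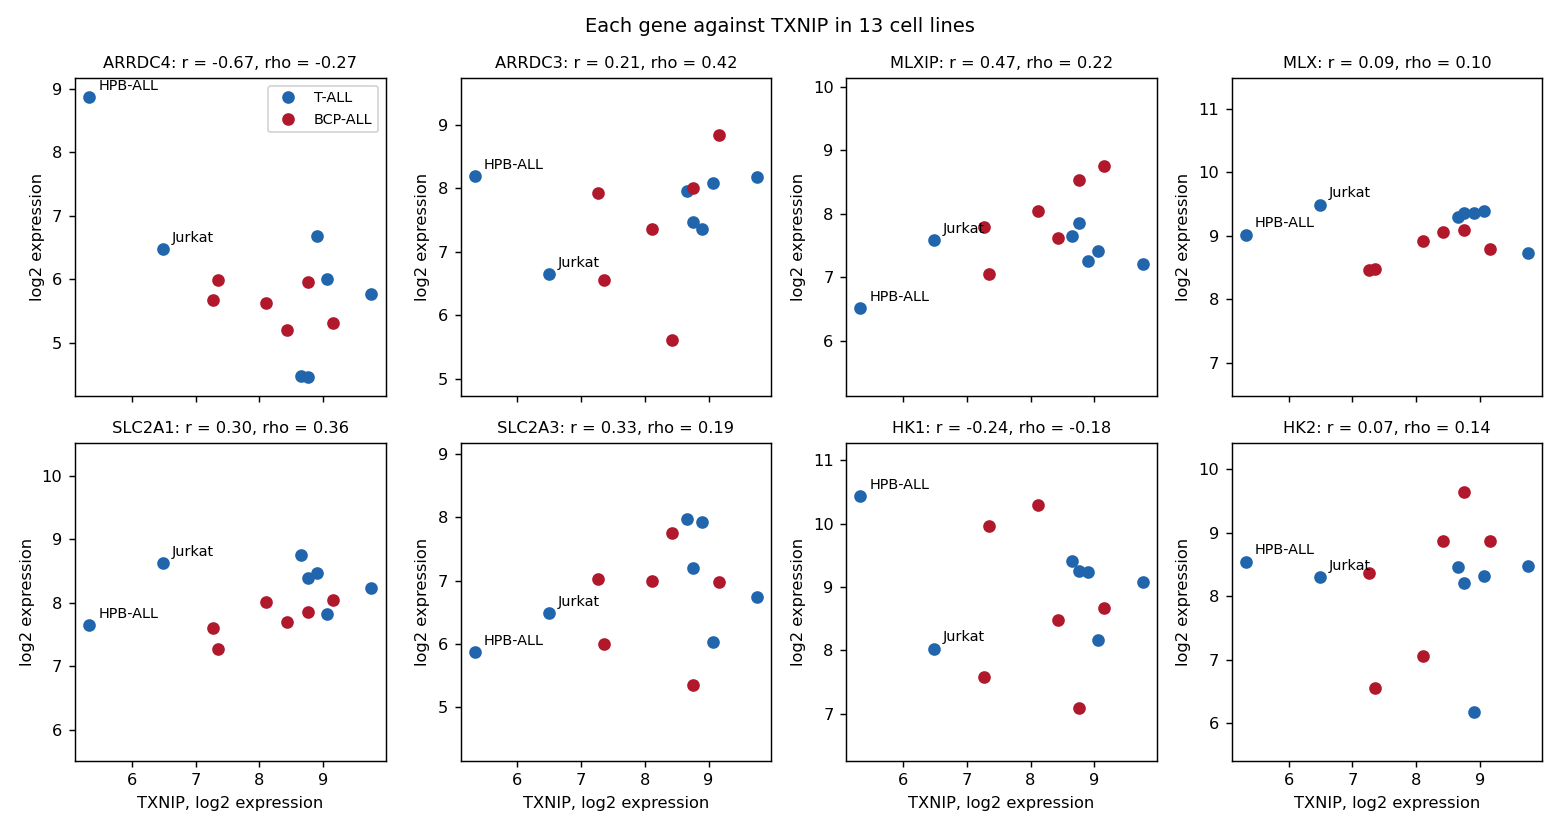
Log2 expression of each of the other 8 genes (vertical axes, equal spans) against the log2 expression of TXNIP (horizontal axis) in the 13 lines, T-ALL in blue and BCP-ALL in red, with r and rho above each panel. HPB-ALL and Jurkat are named; HPB-ALL lies apart from all other lines in the ARRDC4 panel.

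ARRDC3 (chr5:91368631-91383317), an α-arrestin known for sending β-adrenergic receptors and integrin β4 to degradation, had its own pattern. Its log2 expression ran from 6.64 through a median of 7.95 to 8.20 in T-ALL, and from 5.62 through 7.64 to 8.85 in BCP-ALL. RS4;11 was lowest and REH highest, and the T-ALL values fell within the BCP-ALL range. Its r with TXNIP was 0.21 and its rho 0.42 (slope 0.15, SE 0.193, limma, adjusted p = 0.9999). HPB-ALL, at 8.20, had the second highest ARRDC3, and without HPB-ALL and Jurkat r was 0.44 and rho 0.71 over 11 lines (slope 0.52, limma, adjusted p = 0.319).

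MLXIP (chr12:122078756-122147344), which encodes MondoA, was lowest in the line with the least TXNIP. Its log2 expression was 6.51 in HPB-ALL, and ran from 7.06 to 8.75 in the 11 lines other than HPB-ALL and Jurkat, with REH highest. The T-ALL lines ran from 6.51 through 7.41 to 7.85 and the BCP-ALL lines from 7.06 through 7.92 to 8.75, so that the groups overlapped. The r with TXNIP was 0.47 and rho 0.22 (slope 0.23, SE 0.125, 95% interval -0.04 to 0.50, limma, adjusted p = 0.9999). Over the pooled lines this also rested on HPB-ALL, since r was 0.14 without it and 0.11 without HPB-ALL and Jurkat. Within BCP-ALL alone, which does not hold HPB-ALL, r was 0.81 and rho 0.71, against 0.52 and -0.07 within T-ALL. A second MLXIP probe set, which correlated at 0.79 with the first, gave r = 0.37 with TXNIP, and the remaining 2 lay near the lowest value possible in 11 or more lines.

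MLX (chr17:42567100-42573203), the partner of MondoA, varied least among the members on the probe sets chosen. Its log2 expression ran from 8.73 through 9.35 to 9.49 in T-ALL and from 8.47 through 8.85 to 9.10 in BCP-ALL. Its SD over all lines was 0.344, larger than that of only 24.1% of genes, and the lines differed by at most 1.02 log2 units. Its r with TXNIP was 0.09 and its rho 0.10 (slope 0.02, SE 0.0877, limma, adjusted p = 0.9999). The slope changed sign under several alternatives, among them quantile normalization, where it was -0.02. Another MLX probe set, which correlated at 0.68 with the one chosen, varied more, with an SD of 0.520 and a range of 1.85 log2 units. It gave r = 0.19 with TXNIP.

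SLC2A1 (chr1:42925353-42958868), the widely expressed transporter GLUT1, ran from 7.65 through 8.40 to 8.75 in T-ALL and from 7.27 through 7.77 to 8.05 in BCP-ALL on the log2 scale. P12-ICHIKAWA was highest and Nalm16 lowest, and 5 of the 7 T-ALL lines lay above every BCP-ALL line. Its correlation with TXNIP was weakly positive, with r of 0.30 and rho of 0.36 (slope 0.11, SE 0.103, 95% interval -0.12 to 0.33, limma, adjusted p = 0.9999). Without HPB-ALL and Jurkat r was 0.61 over 11 lines (slope 0.35, limma, unadjusted p = 0.048, adjusted p = 0.189). In that setting, added with the data known, 3218 genes had an unadjusted p under 0.05 (limma), against 340 over all lines. The value therefore does not set SLC2A1 apart from other genes.

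SLC2A3 (chr12:7919230-7936187), the high-affinity transporter GLUT3, ran from 5.87 through 6.75 to 7.97 in T-ALL and from 5.35 through 6.99 to 7.75 in BCP-ALL on the log2 scale. P12-ICHIKAWA and ALL-SIL were highest and Nalm6 lowest. Its r with TXNIP was 0.33 and its rho 0.19 (slope 0.22, SE 0.178, limma, adjusted p = 0.9999), and r was 0.06 without HPB-ALL and Jurkat. Probe sets that SLC2A3 shares with the near-identical SLC2A14 were left out, and the signal of its own probe sets may still hold some of that gene.

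The 2 hexokinases varied widely, and Nalm16 and Nalm30 were high for HK1 but low on the brighter of the 2 HK2 probe sets. HK1 (chr10:69270000-69401882), the broadly expressed isoform, had log2 levels from 8.03 through 9.24 to 10.4 in T-ALL and from 7.09 through 8.58 to 10.3 in BCP-ALL. HPB-ALL was highest, Nalm30 and Nalm16 followed, and Nalm6 was lowest. HK2 (chr2:74834127-74893359), the inducible isoform that binds mitochondria in many tumours, ran from 6.17 through 8.31 to 8.54 in T-ALL and from 6.55 through 8.61 to 9.64 in BCP-ALL. On this HK2 probe set Nalm6 was highest, and Nalm16 and Nalm30 were lowest after ALL-SIL, while HPB-ALL, at 8.54, was high for both genes. In T-ALL, 6 of the 7 lines lay between 8.20 and 8.54, and ALL-SIL stood apart at 6.17.

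Neither hexokinase passed in the fit on TXNIP. HK1 had r = -0.24 and rho = -0.18 (slope -0.20, SE 0.225, limma, adjusted p = 0.9999), and its slope was 0.10 without HPB-ALL. HK2 had r = 0.07 and rho = 0.14 (slope 0.05, SE 0.221, limma, adjusted p = 0.9999). The second HK2 probe set correlated at only 0.38 with the first and gave r = -0.32 with TXNIP, so the HK2 values depend on the probe set. On it Nalm30 was highest, at 7.24, and Nalm16 ranked 7 of 13, while ALL-SIL was again lowest, at 5.12.

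**Figure D3:**
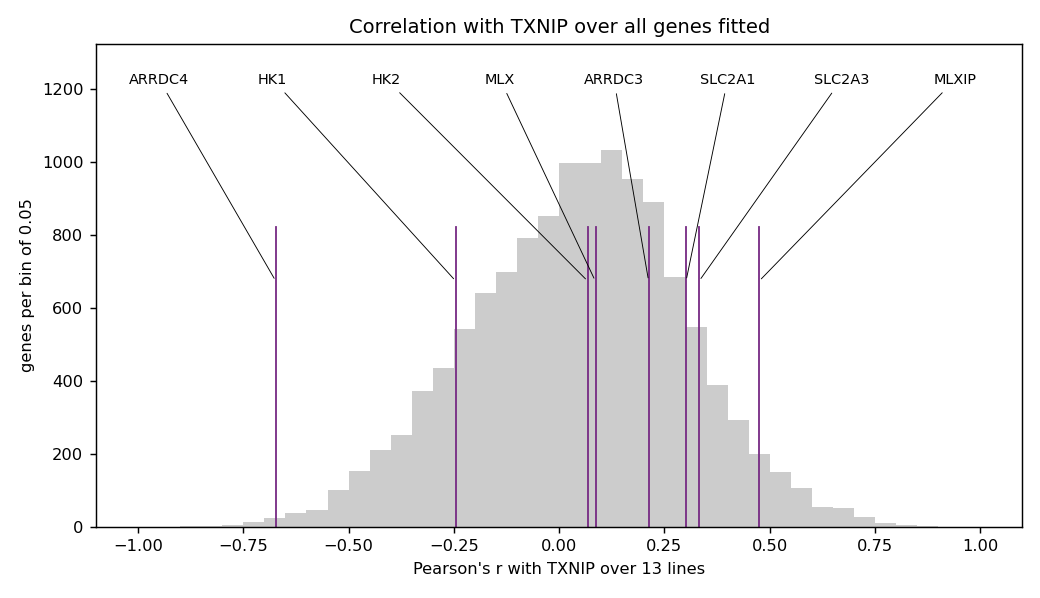
Number of genes (vertical axis, bins of 0.05) by Pearson's r with TXNIP over the 13 lines (horizontal axis), for all 12559 genes fitted beside TXNIP. The vertical lines mark the other 8 members; ARRDC4 lies in the negative tail at -0.67 and MLXIP highest among the members at 0.47.

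Over all 12559 genes r with TXNIP had a median of 0.06, with 5% of genes below -0.39 and 5% above 0.45. Of the other 8 members r was positive for 6 and negative for 2, and its median was 0.15. ARRDC4 and MLXIP lay beyond these limits, and the other 6 members within them. Within T-ALL (n = 7) and BCP-ALL (n = 6) the values of r were -0.72 and -0.47 for ARRDC4, 0.52 and 0.81 for MLXIP, -0.11 and 0.75 for MLX, 0.30 and 0.78 for SLC2A1, and -0.25 and 0.66 for HK2. In T-ALL, rho was -0.07 for MLXIP and -0.14 for SLC2A1. The difference in slope between the lineages was tested for all genes by an interaction term, added after the data were seen. It passed for none of the 8 members (limma, adjusted p between 0.353 and 0.881). The share of all genes that passed is not given here, so this count is not read as particular to the members.

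Among the 36 pairs of members, 2 had r above 0.5 and 4 had r below -0.5. SLC2A1 ran with MLX (r = 0.68, rho = 0.59) and with SLC2A3 (r = 0.51, rho = 0.48), and these pairs had r = 0.65 and 0.58 without HPB-ALL and Jurkat. HK1 ran against HK2 (r = -0.57, rho = -0.38), with r = -0.71 without those 2 lines, but the second HK2 probe set gave r = -0.03 with HK1. HK1 also ran against MLXIP (r = -0.51), and ARRDC4 against MLXIP (r = -0.60, rho = -0.64). The ARRDC4 and MLXIP pair had r = -0.28 without HPB-ALL and Jurkat, and that of ARRDC4 and TXNIP had -0.04.

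**Figure D4:**
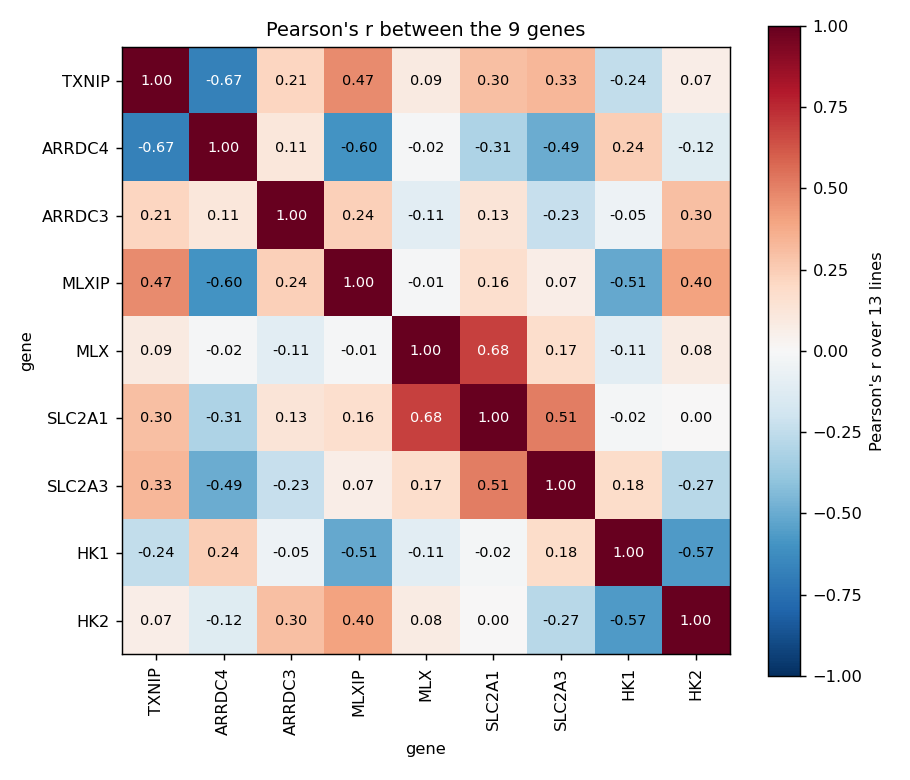
Pearson's r over the 13 lines for each pair of the 9 genes (rows and columns), with colour and printed value giving r. The pair of TXNIP and ARRDC4 is the most negative at -0.67 and that of SLC2A1 and MLX the most positive at 0.68.

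To ask whether the lineages differed, T-ALL was compared with BCP-ALL across all genes with limma. Of 12560 genes 958 passed at an adjusted p of at most 0.05 (7.63%), 497 higher (3.96%) and 461 lower (3.67%) in T-ALL, and of the 9 members 0 passed. With P12-ICHIKAWA and TALL-1 averaged as 1 sample, 609 genes passed. The groups overlapped for every member, which is a description only, since the share of all genes that overlapped is not given here. The members with the smallest p were SLC2A1, with a mean of 8.28 ± 0.41 in T-ALL and 7.75 ± 0.29 in BCP-ALL (SD, n = 7 and 6; difference 0.53, SE 0.207, limma, adjusted p = 0.132), and MLX, with 9.24 ± 0.27 in T-ALL and 8.80 ± 0.28 in BCP-ALL (difference 0.43, SE 0.170, limma, adjusted p = 0.134). MLXIP followed, with 7.35 ± 0.43 in T-ALL and 7.96 ± 0.62 in BCP-ALL (difference -0.61, SE 0.283, limma, adjusted p = 0.198). Each of these had an unadjusted p under 0.05, as had 25.3% of all genes, 15.1% with higher and 10.1% with lower values in T-ALL.

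TXNIP averaged 8.14 ± 1.60 in T-ALL and 8.18 ± 0.76 in BCP-ALL, a difference of -0.04 with a 95% interval from -1.45 to 1.36 (limma). This interval allows a difference of over 1 log2 unit in either direction. The sign rested on single lines: left out one at a time, 5 of the 13 lines turned it positive, and the difference was 0.43 without HPB-ALL and 0.23 without Jurkat. ARRDC4 averaged 6.10 ± 1.505 in T-ALL and 5.62 ± 0.33 in BCP-ALL (difference 0.48, limma, adjusted p = 0.629), and the difference was -0.14 without HPB-ALL and Jurkat. The differences of ARRDC3, SLC2A3, HK1 and HK2 were 0.31, 0.20, 0.41 and -0.16, with adjusted p between 0.663 and 0.882 (limma). For HK1 single lines moved the value most: it was 0.089 without Nalm6, 0.18 without HPB-ALL and 0.19 without 697, against 0.73 without Nalm30 and 0.66 without Nalm16, and 1.13 without both (limma, unadjusted p = 0.0287).

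**Figure D5:**
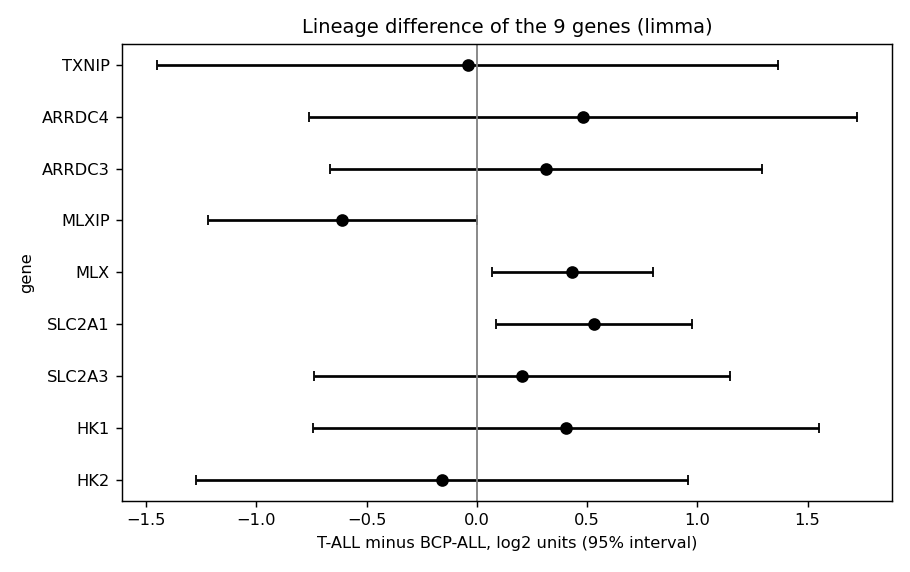
Difference in log2 expression, T-ALL minus BCP-ALL, of the 9 genes (rows) with 95% intervals from limma over 7 T-ALL and 6 BCP-ALL lines; the vertical line marks no difference. None passed the adjusted threshold, and the intervals run from -1.45 to 1.36 for TXNIP and from 0.07 to 0.80 for MLX.

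The wider family and pathway lists were described in the same way, by counts set beside the background of 7.63% for lineage and 0% for TXNIP. None of the genes in any of these lists passed in the fit on TXNIP. For lineage 13 list genes passed, but only 5 of them, ARRDC2, ENO2, FOXO1, IL7R and DUSP1, did so under every alternative. Of the 5 α-arrestins measured, 1 passed for lineage: ARRDC2, at 6.18 to 6.82 in T-ALL and 6.82 to 8.26 in BCP-ALL (difference -0.97, SE 0.227, limma, adjusted p = 0.0194). ARRDC2 passed under each of the 21 alternatives run for lineage, and had r = 0.20 and rho = 0.00 with TXNIP. ARRDC1 had r = -0.16.

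Of the 13 MondoA and ChREBP target genes fitted, r with TXNIP was positive for 7 and negative for 6. The median r was 0.02 in the list and 0.06 among all genes fitted. KLF10, a transcription factor induced by glucose in liver, had r = 0.53 and rho = 0.69 (slope 0.37, SE 0.170, limma, unadjusted p = 0.0482, adjusted p = 0.9999). KLF10 is named because it was, with ARRDC4, the only target with an unadjusted p under 0.05, and was chosen after its value was seen. FASN, the fatty acid synthase, passed for lineage, at 7.25 to 8.47 in T-ALL and 8.38 to 9.47 in BCP-ALL (difference -0.86, SE 0.235, limma, adjusted p = 0.0411). FASN lost this call under 14 of 21 alternatives, with no filter on low expression among them (adjusted p = 0.0505, range 0.0327 to 0.153). MLXIPL, which encodes the MondoA paralog ChREBP, averaged 4.70 over the lines and did not pass the filter on low expression.

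In the network of MLX, MAX and MYC partners, 11 genes were fitted and 0 passed in either comparison. Besides MLXIP, those with the largest r in size were MAX (-0.29), the partner shared by MYC and the MXD repressors, and MYCN (0.27). Of the 9 glucose transporter genes fitted 1 passed for lineage, the fructose transporter SLC2A5, at 4.85 to 5.71 in T-ALL and 5.66 to 7.45 in BCP-ALL (difference -1.10, SE 0.265, limma, adjusted p = 0.0229). Its call was lost without Nalm16, without TALL-1, and without Nalm16 and Nalm30 (limma, adjusted p up to 0.0768), and the difference was -2.13 on its most variable probe set. SLC2A5 had r = 0.01 with TXNIP. The median r of the transporters was -0.11.

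Of the 21 genes of hexokinases and glycolysis fitted, 2 passed as higher and 1 as lower in T-ALL. ENO2, an enolase, lay at 7.31 to 8.48 in T-ALL and 4.21 to 7.05 in BCP-ALL (difference 2.18, SE 0.382, limma, adjusted p = 0.00318), with no overlap. PGK1, a phosphoglycerate kinase, was 0.60 higher (SE 0.148, limma, adjusted p = 0.0257). PFKL, the liver-type phosphofructokinase subunit, had a difference of -1.19 (SE 0.287, limma, adjusted p = 0.0219). The call of PGK1 was lost under 7 of 21 alternatives (limma, adjusted p up to 0.0784), and its difference was 1.80 on its most variable probe set. That of PFKL was lost without Nalm16, without Nalm30 and without both (limma, adjusted p up to 0.0981). Their r with TXNIP was -0.13 for ENO2, 0.23 for PGK1 and -0.22 for PFKL, and the median of the list was -0.03.

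The 4 thioredoxin system genes fitted held 0 that passed in either comparison. TXNRD3, also listed, had no probe set with a single symbol and was not tested. TXN, the thioredoxin that TXNIP binds, had r = 0.14 with TXNIP, and the reductases TXNRD1 and TXNRD2 had r = -0.17 and 0.14. In the list of PI3K, AKT, mTOR and AMPK genes 1 of 17 passed for lineage, PIK3CD, the leukocyte catalytic subunit of PI3K (difference -1.57, SE 0.375, limma, adjusted p = 0.0214), and its r with TXNIP was 0.26. Its call was lost without Nalm16 and Nalm30 and without HPB-ALL and Jurkat (limma, adjusted p up to 0.0800).

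FOXO factors and glucocorticoids are known to raise TXNIP in other settings, and genes tied to them were listed for that reason. Of the 13 FOXO and quiescence genes fitted 3 passed for lineage, all lower in T-ALL: FOXO1 (difference -4.01, limma, adjusted p = 9.15e-07), IL7R, the interleukin-7 receptor chain (-5.49, limma, adjusted p = 0.000964), and CITED2 (-1.07, limma, adjusted p = 0.0293). FOXO1 lay at 4.01 to 4.81 in T-ALL and 7.55 to 9.55 in BCP-ALL, with no overlap. CITED2 lost its call under 8 of 21 alternatives (limma, adjusted p up to 0.0660), among them the averaging of P12-ICHIKAWA and TALL-1.

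Of the 5 glucocorticoid response genes fitted DUSP1 (-4.65, limma, adjusted p = 3.03e-05) and TSC22D3 (-2.78, limma, adjusted p = 0.0428) were lower and ZBTB16 (0.83, limma, adjusted p = 0.0429) was higher in T-ALL. The calls of TSC22D3 and ZBTB16 were lost with no filter on low expression (limma, adjusted p = 0.0664 and 0.0522), and in all under 13 and 15 of 21 alternatives (limma, adjusted p up to 0.194 and 0.122). In both lists the genes with the largest positive r with TXNIP, named after their values were seen, were FKBP5, a chaperone induced by glucocorticoids (r = 0.54, rho = 0.59), and FOXO4 (r = 0.49, rho = 0.61). In the FOXO list PIK3IP1 lay as far on the negative side (r = -0.49, rho = -0.47). There r was positive for 6 genes and negative for 7, with a median of -0.02. In the glucocorticoid list r was positive for 3 and negative for 2, with a median of 0.03. The genes that passed for lineage had r of 0.05 for FOXO1, -0.35 for IL7R, -0.25 for CITED2, -0.18 for DUSP1, 0.03 for TSC22D3 and -0.21 for ZBTB16. The 10 genes for arrestin-linked endocytosis held 0 that passed, and the largest r were 0.48 for the ubiquitin ligase WWP2, 0.33 for NEDD4 and 0.29 for AP2A1.

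The genes whose pattern over the 13 lines was most like that of TXNIP came from other processes. The 10 with the highest r were COX7A2L (r = 0.87, rho = 0.66), KIF22 (0.86 and 0.73), SLX4 (0.82 and 0.62), RGS19 (0.81 and 0.60), DPY30 (0.81 and 0.79), DYNC1LI1 (0.80 and 0.69), TCF25 (0.80 and 0.53), PCNA (0.79 and 0.84), PXN-AS1 (0.79 and 0.88) and OCRL (0.79 and 0.70). HPB-ALL was the lowest line for 8 of these 10, the exceptions being PCNA and PXN-AS1. Without HPB-ALL and Jurkat, r was 0.92 for PCNA, the sliding clamp of DNA replication, 0.82 for PXN-AS1 and between 0.33 and 0.71 for the other 8. None passed in the fit on TXNIP (limma, adjusted p = 0.9999 for each).

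The 10 genes that ran most against TXNIP were LINC01296 (r = -0.85), ELAPOR2 (-0.82), GPR157 (-0.80), TRPS1 (-0.79), ZNF688 (-0.78), DLX2 (-0.77), GADD45G (-0.76), ZNF689 (-0.76), CDKN2A (-0.76) and HCCAT5 (-0.75). HPB-ALL was the highest line for 8 of them, the others being LINC01296, highest in Jurkat, and HCCAT5, highest in Nalm16. Their rho over all lines ran from -0.46 for LINC01296 to -0.77 for HCCAT5. Without HPB-ALL and Jurkat, r was only -0.14 for GPR157 and -0.32 for ZNF689, and -0.54 for LINC01296. In that setting it was -0.85 for CDKN2A, which encodes the tumour suppressors p16 and p14ARF, and -0.79 for GADD45G, a stress-response gene. CDKN2A and GADD45G averaged 5.58 and 5.35, low values at which differences are compressed. The smallest adjusted p among the 10 was 0.822, for LINC01296 (limma).

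The 5 genes most like ARRDC4 were SPPL2A (r = 0.90, rho = 0.66), LINC02806 (0.86 and 0.46), SNX7 (0.84 and 0.56), ZNF764 (0.84 and 0.52) and FAM120AOS (0.83 and 0.64). HPB-ALL was the highest line for each of the 5, as it was for ARRDC4. None of them was among the genes most like or most opposed to TXNIP. Without HPB-ALL and Jurkat their r with ARRDC4 ran from 0.39 for ZNF764 to 0.72 for FAM120AOS.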

How the data were processed

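RNA from 13 cell lines, 1 array each, was measured by the authors on Affymetrix human arrays, and expression values were obtained with iterPLIER, 16 being added to the signal before the log2 was taken. Affymetrix Expression Console is named in the submitters' processing notes, with no version. The deposited log2 values were used as they stand. No column was left unmapped.

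Probe sets were named from GEO's platform annotation: of 42450, 38125 had 1 gene symbol, 1742 had several and 2583 had none. Each of 18568 genes was represented by its single-symbol probe set with the highest mean. Genes above the median of their array in at least 3 lines were fitted (12560). T-ALL was compared with BCP-ALL, and every gene was fitted on TXNIP, with limma 3.58.1 in R 4.3.3 and Benjamini-Hochberg adjustment over all genes, at an adjusted p of at most 0.05. The fits were tested on simulated data. Since each line is 1 sample, p-values measure the spread between these lines, and the number of arrays limits the precision.

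All 9 members were named. So were the 10 genes most like and the 10 most opposed to TXNIP, and the 5 most like ARRDC4, by Pearson's r. From each list, genes that passed were named, up to 6 by p, and otherwise up to 3 with the largest r. The members and lists were chosen with earlier results of these data known. Promoter sequences came from RefSeq. Protein sequences were not used here. Alternatives included other normalizations, filters, probe sets and models and leaving out lines.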

Additional observations from a re-analysis of the deposited data

Results flagged for a closer look

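HK2 in ALL-SIL lay far from the other T-ALL lines. Its log2 expression was 6.17, against 8.20 to 8.54 in the other 6, and the gap was 0.856 of the range of the group. It was the only such value among 18 groups of lines tested, where chance gives about 1 in 20 groups. The second HK2 probe set was also lowest in ALL-SIL, at 5.12, but its order of the other lines differed, with r = 0.38 between the probe sets.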

How the results depend on the processing

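Under 21 alternatives for lineage 0 of the 9 members passed, and under 25 for the fit on TXNIP 0 of the other 8. Of 13 list genes that passed for lineage 8 lost the call under at least 1 alternative. T-ALL against BCP-ALL gave 609 genes with P12-ICHIKAWA and TALL-1 averaged as 1 sample, and from 608 (without TALL-1) to 1215 (without REH) when 1 line was left out, with 626 without P12-ICHIKAWA, against 958 over all lines. The fit on TXNIP gave 0 to 4 genes when 1 line was left out (4 without Jurkat) and 1 without HPB-ALL and Jurkat, 2 lines whose removal was added with the data known. With an unadjusted p under 0.05 there were 3218 genes without both, 660 without Jurkat and 511 with no filter on low expression. Over all lines there were 340 of 12559 genes (2.71%). With no filter the genes tested came from all 18568 with a probe set of their own, so 511 and 340 rest on different numbers tested.

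When 1 line was left out, the T-ALL minus BCP-ALL differences that changed sign lay between -0.31 and 0.43 for TXNIP, -0.041 and 0.60 for ARRDC3, -0.063 and 0.42 for SLC2A3 and -0.49 and 0.16 for HK2, and the slopes on TXNIP between -0.0062 and 0.083 for MLX, -0.35 and 0.10 for HK1 and -0.023 and 0.23 for HK2. Without HPB-ALL and Jurkat, the difference was 0.85 for TXNIP, a value in which no test is read because these lines were left out for their low TXNIP, and -0.14 for ARRDC4. The slope turned to -0.020 for MLX and -0.028 for HK2 with quantile normalization, to -0.0040 for MLX and -0.031 for HK2 without Nalm16 and Nalm30, and to -0.010 for MLX with another TXNIP probe set. No paired analysis was possible, because the T-ALL and BCP-ALL groups are made of different lines and the labels give no pairing between them. The cause of these changes was not tested. Low signals are limited by the constant of 16, and 1 array per line leaves no error of measurement.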
